A study of Mus musculus with 16 samples.

Results

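The muscarinic and nicotinic acetylcholine receptor genes studied here were Chrm1, Chrm2, Chrm3, Chrm4 and Chrm5, which encode the muscarinic receptors, and Chrna3, Chrna5, Chrna7, Chrnb2 and Chrnb4, which encode subunits of neuronal nicotinic receptors. They were chosen by name, and every probe whose accession belongs to 1 of these 10 genes was taken, which gave 11 probes, 2 of them for Chrm1 and 1 for each of the others. Of the 10 genes, 6 had a probe that could be tested, among 26781 genes tested on the arrays. Gene expression had been measured in the bladder body of C57BL/6 mice, with 1 bladder on each 1-colour Agilent array. The groups were 4 MAT males and 4 MAT females, 12 months old, and 4 AGED males and 4 AGED females, 27 to 30 months old. No group had been treated, and the bladder body was used whole, so that smooth muscle, urothelium, nerve and stroma shared each RNA sample. Fewer cells of a type and less RNA per cell cannot be told apart in such samples.

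Acetylcholine is the main transmitter by which parasympathetic nerves contract the bladder. Muscarinic receptors are G protein-coupled: M1, M3 and M5 act through Gq and phospholipase C, and M2 and M4 act through Gi and lower cyclic AMP. In the detrusor, the bladder's smooth muscle, M2 is the more abundant subtype and M3 is the one that drives most of the contraction. Nicotinic receptors are cation channels built from 5 subunits, and in autonomic ganglia the α3 and β4 subunits, with α5 and β2, carry fast transmission between nerve cells, while α7 forms channels by itself and also occurs on macrophages.

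The deposited labels set the age and sex of each array. They give a direction opposite to that of the study's own table of leading genes, and every change below is AGED minus MAT as the arrays are labelled. All values are log2 processed signals less the 75th percentile of the same array, so that a value of 0 lies at the level that 75% of the probes did not exceed, and values of different probes cannot be ranked against each other. The scanner software marked 60.4% to 65.9% of the probes as well above background in MAT males, 52.3% to 61.2% in AGED males, 64.6% to 68.2% in MAT females and 59.9% to 63.2% in AGED females, and AGED male replicate 1 had the lowest share. Males lay on 1 slide and females on the other, and on both slides MAT arrays were in row 1 and AGED arrays in row 2, so age and slide row, and sex and slide, cannot be told apart. The labelled tissue was checked with its markers: 12 of 12 smooth muscle genes (such as Cnn1, Tagln and Acta2) and 9 of 9 urothelium genes (such as Upk1a and Upk3a) were measured, and 0 of 6 genes of the male accessory glands could be tested. Of the latter, Svs5 was well above background on 2 MAT males, 1 Svs2 probe on 1 MAT male and 1 MAT female, and Pate4 on 1 AGED female. The labels do not say whether the mice were littermates or how they were housed by group, and p-values measure the spread between these arrays.

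Detection split the receptors. The probes of Chrm2, Chrm3 and Chrm4 were well above background on all 16 arrays. Those of Chrnb2 and Chrnb4 were well above background on 15 arrays each, the exceptions being AGED male replicate 2 for Chrnb2 and AGED male replicate 1 for Chrnb4. The brighter Chrm1 probe, A_55_P2055262, passed on 4 of 4 MAT males, 3 of 4 AGED males, 4 of 4 MAT females and 1 of 4 AGED females, 12 arrays in all. The other Chrm1 probe, A_52_P393577, passed on 1 MAT male array, and the Chrm5 probe on 1 AGED female array. The α subunit genes Chrna3, Chrna5 and Chrna7 were not well above background on any array, although Chrna7 was spotted 10 times per array. A probe had to pass on at least 4 of the 16 arrays to be tested, which kept Chrm1, Chrm2, Chrm3, Chrm4, Chrnb2 and Chrnb4.

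**Figure D1:**
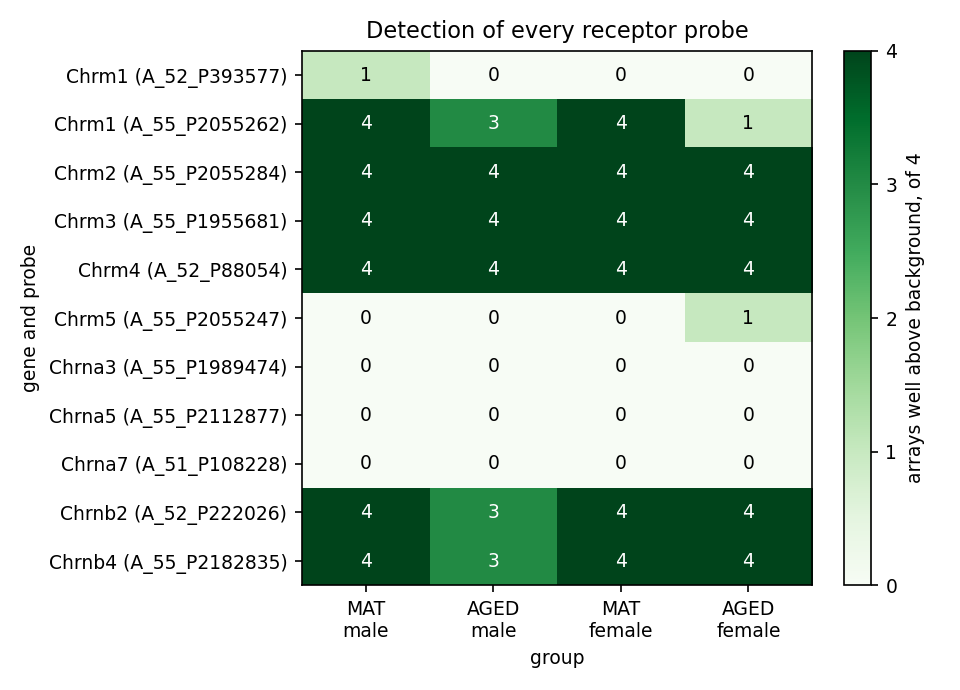
Number of arrays, of 4 in each group, on which each of the 11 receptor probes was well above background (columns: groups, rows: gene and probe, colour scale from 0 to 4). Chrm2, Chrm3 and Chrm4 have 4 in every group, the α subunit genes have 0, and Chrm1 falls to 1 in AGED females.

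The study also measured M1, M2 and M3 by RT-PCR, whose values were not analysed here. The primers show which transcripts that assay addressed, and are given as printed in the study's supplement, each pair 5′ to 3′ in the order listed there:
Chrm1 first primer: agggatgcggcaaactggta
Chrm1 second primer: aggtacagggtaagacctgggtga
Chrm2 first primer: ccaaaccggtccaacctgag
Chrm2 second primer: tgttcagtagtcaagtggccaaaga
Chrm3 first primer: tgctgagcagatggaccaaga
Chrm3 second primer: cggcagcttgagtacaatggaa

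No receptor gene changed with age by the criteria used, which were a Benjamini-Hochberg adjusted p under 0.05 from limma and at least a 2-fold change. In males 0 of the 6 tested members were called, where limma called 0.851% of all genes, and in females 0 of 6, where it called 0.19%. At an unadjusted p under 0.05, 0 of 6 passed in males against 16.2% of all genes, and 1 of 6 (Chrm1) in females against 10.5%. With or without adjustment, the methods' t-test called 0 members in either sex. The arrays of AGED and MAT mice did not overlap for Chrm3 in males, as for 7.82% of all genes, and for Chrm1 in females, as for 10.8%. The 95% intervals of the members' log2 changes reached between 0.6 and 0.85 to either side of the estimate, which is the precision that 4 arrays in each group gave. For Chrm2, Chrm4, Chrnb2 and Chrnb4 in females and for Chrm2 and Chrm4 in males the interval lay within 1 log2 unit of 0 on both sides.

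**Figure D2:**
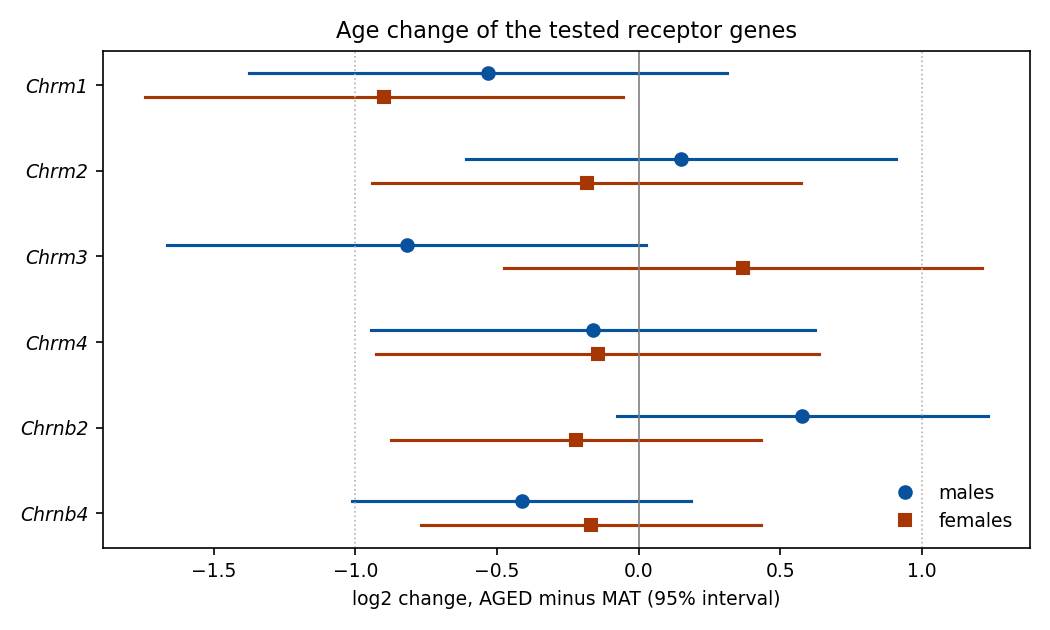
Log2 change, AGED minus MAT, of the 6 tested receptor genes in males (blue circles) and females (brown squares), with 95% intervals from limma and dotted lines at a 2-fold change. All intervals but that of Chrm1 in females include 0, and the changes farthest from 0 are those of Chrm3 in males (-0.82) and Chrm1 in females (-0.90), the latter with 3 of 4 AGED arrays not well above background.

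Chrm3 encodes M3, the subtype that drives detrusor contraction. Its log2 signal was -0.28, 1.03, 0.90 and -0.24 in MAT males and -0.53, -0.30, -0.50 and -0.55 in AGED males. In females it was 0.19, 0.08, 0.80 and -0.89 in MAT and 1.14, -0.03, -0.29 and 0.83 in AGED mice. Every AGED male lay below every MAT male, but the highest AGED male and the lowest MAT male were only 0.015 apart, and the MAT males fell into a high and a low pair. The female groups overlapped along most of their range. The group means were 0.35 ± 0.71 (SD, n = 4) in MAT males and -0.47 ± 0.12 in AGED males, a 1.76-fold lower signal. The log2 change in males was -0.82 (standard error 0.40, 95% interval -1.66 to 0.025, limma p = 0.0564, adjusted p = 0.322), and the exact two-sided permutation test gave p = 0.0286, the smallest that 4 arrays against 4 allow. In females the means were 0.045 ± 0.70 in MAT and 0.41 ± 0.68 in AGED mice, with a change of 0.37 (95% interval -0.48 to 1.21, adjusted p = 0.817 from limma). The change in males less that in females was -1.19 (standard error 0.56, 95% interval -2.38 to 0.0074, limma adjusted p = 0.509), so a difference between the sexes was not called.

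The spread of the AGED males (SD 0.12) was smaller than in the other 3 groups (SD 0.68 to 0.71). With normexp background correction the male change was -0.49 and the groups overlapped. Of 12 tested smooth muscle markers 7 were higher and 5 lower in AGED males and 6 higher and 6 lower in AGED females, with 0 called by limma. At an unadjusted p under 0.05, 0 of these markers passed in males (16.2% of all genes) and 1 in females (10.5%). That 1 was Smtn (change -0.49, no overlap, singled out after its values were seen). The median log2 change of the 12 markers was 0.015 in males and 0.0023 in females, with members in both directions. In males the mean level of the list ranged from 6.00 to 6.10 in MAT males and from 5.77 to 6.18 in AGED males. The high Chrm3 pair of MAT males, replicates 2 and 3, had lower signals of neuron markers Tubb3 and Prph than replicates 1 and 4. Tubb3 was at -3.87 and -3.23 against -1.51 and -1.63, and Prph at -2.56 and -1.95 against -0.69 and -0.67. Some others did not split so, such as Uchl1 (3.45 and 3.49 against 3.03 and 3.41). These 3 genes were singled out after their values were seen. The part of cell composition in the Chrm3 values was not tested.

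Chrm2 encodes M2, the more abundant detrusor subtype. Its log2 signal was -0.82, -0.30, -0.12 and -0.90 in MAT males and -0.19, -0.58, -0.05 and -0.73 in AGED males. In females it was -0.40, -0.11, 1.26 and -0.61 in MAT and 0.44, -0.66, -0.28 and -0.08 in AGED mice. The groups overlapped in both sexes, and MAT female replicate 3 lay highest of all 16 arrays. The log2 change was 0.15 in males (standard error 0.35, 95% interval -0.61 to 0.91, adjusted p = 0.863 from limma) and -0.18 in females (95% interval -0.94 to 0.57, adjusted p = 0.917). Without MAT female replicate 3 the female change was 0.22. The male and female changes differed by 0.33 (95% interval -0.74 to 1.40, adjusted p = 0.882).

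**Figure D3:**
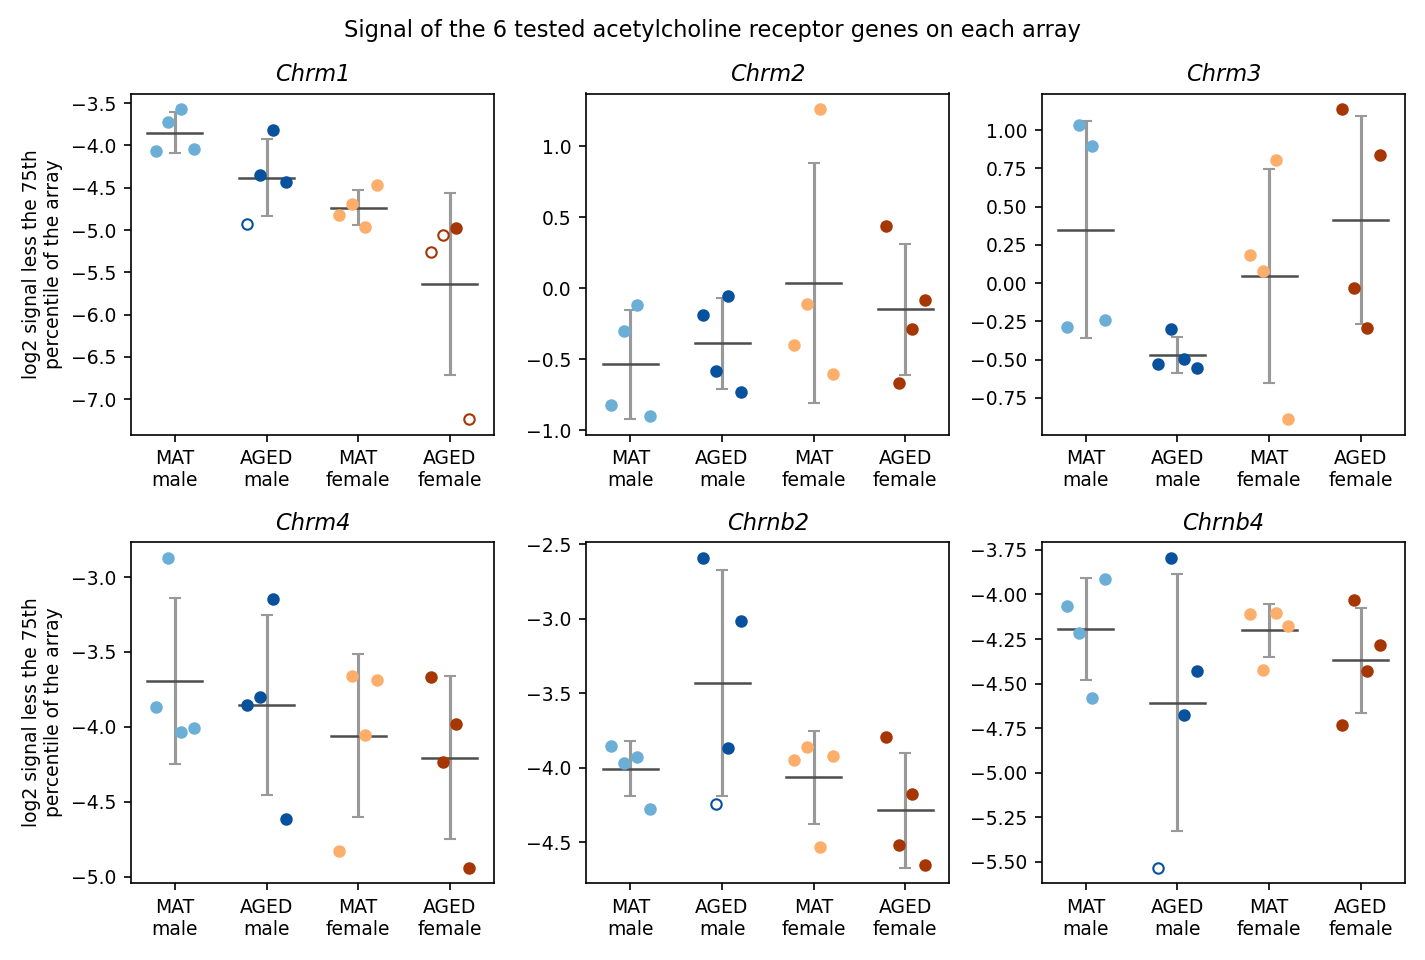
Log2 signal less the array's 75th percentile for each of the 6 tested receptor genes on each of the 16 arrays (filled circles: well above background, open circles: not), with the mean (line) and SD (bar) of each group of 4; each panel has its own vertical scale. AGED males lie below MAT males for Chrm3, and 3 of 4 AGED female values of Chrm1 are open circles.

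Chrm1 encodes M1, which is best known from neurons and ganglia. With probe A_55_P2055262 its log2 signal was -4.82, -4.69, -4.96 and -4.47 in MAT females and -5.26, -5.06, -4.98 and -7.24 in AGED females. In males it was -4.07, -3.72, -3.57 and -4.04 in MAT and -4.93, -4.35, -3.81 and -4.44 in AGED mice. All AGED females lay below all MAT females, by 0.019 at the nearest pair, and AGED female replicate 4 lay far below the rest. The male groups overlapped.

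The log2 change of Chrm1 in females was -0.90 (standard error 0.40, 95% interval -1.74 to -0.055, limma p = 0.0384, adjusted p = 0.442), with the smallest exact permutation p possible, 0.0286. It was -0.36 without AGED female replicate 4 and -0.46 when dim signals were set to the lowest signal well above background. With normexp it was -0.22, but that setting adds 50 to every signal, which draws log2 changes of dim probes towards 0. In males it was -0.53 (95% interval -1.38 to 0.31, adjusted p = 0.524), and the sexes differed by 0.37 (adjusted p = 0.883). From highest to lowest, the group means of this probe were -3.85 in MAT males, -4.38 in AGED males, -4.74 in MAT females and -5.63 in AGED females. Of the neighbours in that order, MAT and AGED males overlapped, as did AGED males and MAT females. The second probe, A_52_P393577, was too dim for a fold in either sex. Its log2 signal ranged from -7.86 to -5.59 in MAT males, -7.54 to -5.53 in AGED males, -7.19 to -6.29 in MAT females and -8.04 to -6.87 in AGED females.

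Markers of nerve cells are given beside these values. Of 19 tested genes of intramural neurons 17 were lower and 2 higher in AGED females, with a median log2 change of -0.48 against -0.0063 over all genes tested, and 6 of the 19 did not overlap between the ages (10.8% of all genes). The mean level of the list ranged from -1.35 to -0.79 in MAT females and from -1.87 to -1.38 in AGED females. In males 11 were lower and 8 higher with a median of -0.025, and the mean level ranged from -2.51 to -0.95 in MAT and from -2.61 to -0.83 in AGED mice. Schwann cell markers were lower in 6 of 7 cases in AGED females (median -0.54, 5 of 7 without overlap, against 10.8% of all genes), with list levels of -0.81 to -0.63 in MAT and -1.65 to -0.97 in AGED females. None of these marker genes was called in females by limma, and 1 of 19 neuron and 4 of 7 Schwann cell genes were lower at an unadjusted p under 0.05 (10.5% of all genes). In males 5 of 7 Schwann cell markers were lower and 2 higher (median -0.28), with 0 called and list levels of -1.12 to -0.62 in MAT and -1.38 to -0.58 in AGED mice. Of these male changes, 1 lower and 1 higher had an unadjusted p under 0.05 (16.2% of all genes). In males limma called 1 of the 26 neuron and Schwann cell markers, where it called 0.851% of all genes. This was the growth cone gene Stmn2, whose log2 signal was 1.76, 1.60, 1.16 and 1.70 in MAT and 0.11, 0.66, -0.03 and 1.16 in AGED males (change -1.08, adjusted p = 0.0359 from limma). Stmn2 lost its call when 1 array was left out in 9 of 16 cases (MAT male replicate 1, 2 or 4, AGED male replicate 1 or 3, MAT female replicate 1, 3 or 4, or AGED female replicate 2), at an adjusted p of up to 0.101. It also lost it with array weights (adjusted p = 0.123), with each sex fitted alone (0.243), with the methods' t-test after adjustment (0.371) and without AGED male replicate 1 and AGED female replicate 4 together (0.080). MAT males had the highest mean Chrm1 signal (-3.85), while their neuron list levels (-2.51 to -0.95) reached below those of MAT females (-1.35 to -0.79). The part of nerve content in the receptor values was not tested.

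Chrm4, the gene of the Gi-coupled M4, had log2 signals of -3.86, -2.87, -4.03 and -4.004 in MAT males and -3.85, -3.80, -3.15 and -4.62 in AGED males. In females they were -4.83, -3.66, -4.06 and -3.69 in MAT and -3.66, -4.23, -3.98 and -4.94 in AGED mice. The ages overlapped in both sexes. The change was -0.16 in males (95% interval -0.94 to 0.62, adjusted p = 0.856 from limma) and -0.15 in females (95% interval -0.93 to 0.64, adjusted p = 0.942), with a difference between the sexes of -0.016 (adjusted p = 0.996). The signs of the changes of Chrm4 depended on single arrays, and that in males on the background correction.

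Chrm5, the gene of the Gq-coupled M5, was not well above background on any male or MAT female array. Its log2 signal in AGED females was -6.19, -4.57, -7.01 and -6.64, with replicate 2 the array that passed. The MAT females lay between -8.05 and -6.14, and the ages overlapped (exact permutation p = 0.286). With dim MAT signals raised to the lowest signal well above background, AGED over MAT females came to 1.01-fold. Only 1 of 4 AGED arrays was measured, so this is not a lower bound.

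Among the nicotinic subunits, Chrnb2 encodes β2. Its log2 signal was -3.86, -3.97, -3.93 and -4.28 in MAT males and -2.59, -4.24, -3.87 and -3.02 in AGED males. In females it was -3.95, -3.86, -4.53 and -3.92 in MAT and -3.79, -4.52, -4.18 and -4.66 in AGED mice. AGED male replicates 1 and 4 lay above all other arrays, and replicate 2 of the same group was among the lower ones. The change was 0.58 in males (standard error 0.31, 95% interval -0.076 to 1.23, limma adjusted p = 0.365), -0.22 in females (95% interval -0.87 to 0.43, adjusted p = 0.869), and the sexes differed by 0.80 (95% interval -0.13 to 1.72, adjusted p = 0.584). The male change was 0.30 without AGED male replicate 1, 0.20 with array weights and -0.097 with normexp, so its direction was not settled.

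Chrnb4 encodes β4, the partner of α3 in ganglionic receptors. Its log2 signal was -4.06, -4.22, -4.58 and -3.92 in MAT males and -5.53, -3.79, -4.67 and -4.43 in AGED males. In females it was -4.11, -4.42, -4.10 and -4.18 in MAT and -4.73, -4.03, -4.43 and -4.28 in AGED mice. The low value in AGED males was that of replicate 1, the array with the fewest probes above background, where this one did not pass. The change was -0.41 in males (95% interval -1.01 to 0.19, adjusted p = 0.487 from limma) and -0.17 in females (95% interval -0.77 to 0.43, adjusted p = 0.902), with a difference of -0.25 (adjusted p = 0.893). Without AGED male replicate 1 the male change was -0.10.

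Chrna3, Chrna5 and Chrna7 have no measured level here, and no fold is given for them. The log2 signal over all 16 arrays lay between -8.15 and -5.56 for Chrna3, -8.47 and -6.52 for Chrna5, and -8.14 and -6.19 for Chrna7. In the annotation Chrna5, Chrna3 and Chrnb4 are neighbours on chromosome 9, and of these only Chrnb4 was measured. A signal near background bounds the level of these probes and does not show that the transcripts were absent.

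In the test of the difference between the sexes, 0 of 6 members were called, where limma called 0.149% of all genes. At an unadjusted p under 0.05 it was 0 of 6 against 9.87% of all genes. Chrm3 (-1.19) and Chrnb2 (0.80) had the largest differences, with opposite signs.

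The members were compared with each other across the 16 arrays as a description, since the points share arrays, slides and scaling. Among 15 pairs, Chrm2 and Chrm3 had a Pearson correlation of 0.592, and 0.762 for deviations from the group means. Chrnb2 and Chrnb4 ran opposite to each other, at -0.734 and -0.768. Chrm1 and Chrm4 were at 0.602 and 0.551. AGED female replicate 4 was the lowest of the 16 arrays for both genes, and its Chrm1 signal was not well above background. MAT female replicate 3 had the highest Chrm2 signal of the 16 arrays. AGED male replicate 1 had the highest Chrnb2 and the lowest Chrnb4 signal, the latter not well above background. The correlations were not computed without these arrays.

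**Figure D4:**
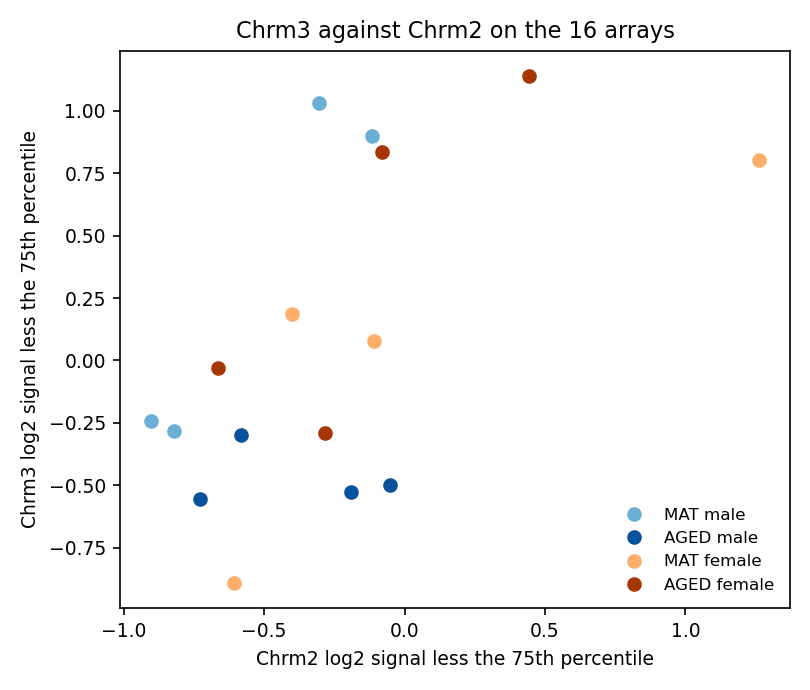
Log2 signal of Chrm3 (vertical) against that of Chrm2 (horizontal), each less the 75th percentile of its array, for the 16 arrays coloured by group. Arrays high in one tend to be high in the other (Pearson correlation 0.592), while the 4 AGED males lie at Chrm3 values from -0.55 to -0.30 whatever their Chrm2 value.

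The named genes whose signal followed Chrm3 most closely, of 15932 compared, were Tgfb3 (0.812), Atf5 (0.805), Agrp (0.797), Chpf (0.795) and Fkbp10 (0.792). Tgfb3 encodes a transforming growth factor β and Fkbp10 a chaperone of collagen folding. The log2 change of Tgfb3 was -0.76 in males and 0.54 in females, and it was not called (adjusted p of 0.320 and 0.663 from limma). For Chrm2 they were Dok7 (0.780), Krtap12-1 (0.733), Wnt9a (0.720), Mrgpra2a (0.713) and Ift43 (0.701), with Dok7 known as an activator of the kinase that clusters nicotinic receptors at the motor endplate. None of the 10 was called in either sex. As the best of so many genes over 16 arrays, such correlations are a description.

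RefSeq promoter sequences (GRCm38.p6) were found for 9 of the 10 genes. Those of Chrm2 and Chrm3 are shown because both were measured on every array and varied together, each as the 250 bases before the start of transcription on the strand of the gene, with any match to GGGCGG on either strand in capitals:
Chrm2 at chr6:36387834-36388083, plus strand: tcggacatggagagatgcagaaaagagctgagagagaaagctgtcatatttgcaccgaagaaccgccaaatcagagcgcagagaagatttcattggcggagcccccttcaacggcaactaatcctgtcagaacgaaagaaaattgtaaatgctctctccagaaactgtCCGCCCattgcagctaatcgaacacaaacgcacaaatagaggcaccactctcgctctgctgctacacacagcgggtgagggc
Chrm3 at chr13:10360804-10361053, minus strand: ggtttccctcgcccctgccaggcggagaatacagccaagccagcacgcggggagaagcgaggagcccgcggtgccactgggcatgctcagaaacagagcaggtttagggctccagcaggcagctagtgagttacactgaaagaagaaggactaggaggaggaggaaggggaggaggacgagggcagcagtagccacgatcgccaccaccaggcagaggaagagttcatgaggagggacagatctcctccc
The Chrm2 promoter was 50% GC with 12 CpG dinucleotides and 1 match to GGGCGG, and the Chrm3 promoter was 61.2% GC with 10 CpG and 0 matches. Among 32851 promoters of this length the median was 52.4% GC and 6 CpG, and 32.7% held GGGCGG. Neither held TATAAA (12.4% of all promoters) or CANNTG (66.2%), searched on both strands.

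Of the other nicotinic subunits, 11 genes were on the array, 3 could be tested and limma called 0. At an unadjusted p under 0.05, 1 was lower in males (Chrnb1, against 16.2% of all genes) and 1 in females (Chrna2, against 10.5%). Chrnb1, the β1 subunit of muscle receptors, had log2 signals of -2.62, -1.89, -1.91 and -2.56 in MAT males and -4.53, -3.09, -2.90 and -2.94 in AGED males. These did not overlap (change -1.12, limma adjusted p = 0.114), and the change in females was -0.06. Chrna2 changed by -0.29 in males and -1.05 in females (adjusted p = 0.751 and 0.379). Chrng, the fetal muscle subunit, was well above background on 2 of 4 MAT males, 0 of 4 AGED males, 3 of 4 MAT females and 1 of 4 AGED females, and no fold is given for it. No median is given for these 3 genes, since it would be the value of Chrng in both sexes. Of 6 tested skeletal muscle markers, 4 were lower and 2 higher in AGED males (median -0.44). Limma called 0 of them (0.851% of all genes), and 2 were lower at an unadjusted p under 0.05 (16.2% of all genes). Their mean levels were 1.52 to 2.13 in MAT and 0.69 to 1.87 in AGED males. The part of striated muscle in the values of Chrnb1 was not tested.

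Of 9 genes of acetylcholine synthesis, transport and breakdown, 8 could be tested and limma called 0 in either sex. At an unadjusted p under 0.05, 1 was higher and 1 lower in males (16.2% of all genes) and 1 lower (Ache) in females (10.5%). In males 4 were higher and 4 lower (median 0.040), and in females 2 higher and 6 lower (median -0.54, against -0.0063 over all genes, and -0.47 without Ache, whose probe passed background on 0 of 4 AGED females). The log2 signal of Bche, which encodes butyrylcholinesterase, was 2.32, 1.93, 1.86 and 1.95 in MAT males and 1.24, 2.13, 0.19 and 0.13 in AGED males, with a change of -1.09 (limma adjusted p = 0.162) and of -0.60 in females (adjusted p = 0.620). Colq, the collagen tail of acetylcholinesterase, changed by 1.03 in males (limma adjusted p = 0.30) and -0.47 in females (adjusted p = 0.800). Prima1, its membrane anchor, changed by -0.23 and -0.20 (adjusted p = 0.674 and 0.845).

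Of 26 genes of muscarinic signalling, 26 were tested and 1 was called, in males, where 0.851% of all genes were. This was Ppp1r14a, which encodes CPI-17, an inhibitor of myosin light chain phosphatase that sensitises smooth muscle to calcium. Its log2 signal was 4.43, 4.29, 4.29 and 4.42 in MAT males and 3.05, 3.28, 3.53 and 2.95 in AGED males. In females it was 4.32, 4.30, 4.18 and 4.09 in MAT and 4.02, 3.90, 4.14 and 4.01 in AGED mice. The AGED males lay below all other arrays, while the females overlapped. Ppp1r14a fell in males, with a log2 change of -1.16 (standard error 0.13, limma adjusted p = 0.000543). The change in females was -0.21 (adjusted p = 0.613), and the test of the difference between the sexes gave -0.95 (adjusted p = 0.0513). The male call was lost when each sex was fitted alone (adjusted p = 0.0811) and with the methods' t-test after adjustment (0.104).

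Across the signalling list 19 genes were lower and 7 higher in AGED males, with a median of -0.16 against 0.0015 over all genes, and 3 of 26 did not overlap (7.82% of all genes). Of the 19, Plcb2 was not well above background on any male array. In females 15 were lower and 11 higher (median -0.056). At an unadjusted limma p under 0.05, 5 were lower and 1 higher in males (16.2% of all genes), and 1 was lower in females (10.5%). The mean level of the list ranged from 2.35 to 2.47 in MAT males and from 2.05 to 2.29 in AGED males, and from 2.33 to 2.43 in MAT females and 2.31 to 2.42 in AGED females. The 2.05 was that of AGED male replicate 4, averaged without the bright gene Gnai2, which had no value there. Rgs2, a regulator that shortens Gq signals, changed by -0.66 in males (adjusted p = 0.0953 from limma, no overlap) and -0.34 in females (adjusted p = 0.560). Ppp1r12a, the myosin phosphatase targeting subunit, changed by -0.22 and -0.13 (adjusted p = 0.530 and 0.857). Gnai2, a Gi subunit, had log2 signals of 4.87, 5.21, 4.91 and 5.23 in MAT males and 3.43, 5.14 and 4.59 in AGED males, with replicate 4 left out for its outlier flag. Its change was -0.67 in males (n = 3 AGED arrays, limma adjusted p = 0.280), where AGED male replicate 1 lay lowest, and 0.02 in females (limma adjusted p = 0.990).

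Of 7 genes of nicotinic receptor assembly and modulation, 7 were tested and limma called 0. At an unadjusted p under 0.05 it was also 0 in males (16.2% of all genes) and in females (10.5%). Rapsn, which clusters nicotinic receptors, changed by -0.27 in males and -0.34 in females (adjusted p = 0.545 and 0.612 from limma), Lynx1, a membrane-bound modulator, by -0.10 and -0.01 (adjusted p = 0.786 and 0.992), and Lypd6 by 0.30 and 0.13 (adjusted p = 0.712 and 0.951). Macrophages, on which α7 is also found, were followed by 8 measured markers. In AGED mice 6 were higher in males (median 0.38) and 7 in females (median 0.44). Limma called 0 of them, where it called 0.851% of all genes in males and 0.19% in females. At an unadjusted p under 0.05, 2 were higher in females (10.5% of all genes), and 1 was higher and 1 lower in males (16.2%). In females 2 did not overlap between the ages (10.8% of all genes), and in males 0 (7.82%). The mean level ranged from 2.18 to 2.34 in MAT and 2.28 to 3.48 in AGED males. In females it ranged from 1.97 to 2.27 in MAT and 2.38 to 3.11 in AGED mice. Chrna7 was not well above background on any of these arrays. Lymphocyte, fibroblast and urothelium markers had 0 calls in either sex (0.851% of all genes in males, 0.19% in females). Of 7 lymphocyte markers, 7 were higher in AGED males (median 0.51) and 7 lower in AGED females (median -0.29). At an unadjusted limma p under 0.05, 2 of 5 fibroblast and 1 of 9 urothelium markers were lower in males (16.2% of all genes). In females, and for the lymphocyte list in males, it was 0 (10.5% and 16.2% of all genes).

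**Figure D5:**
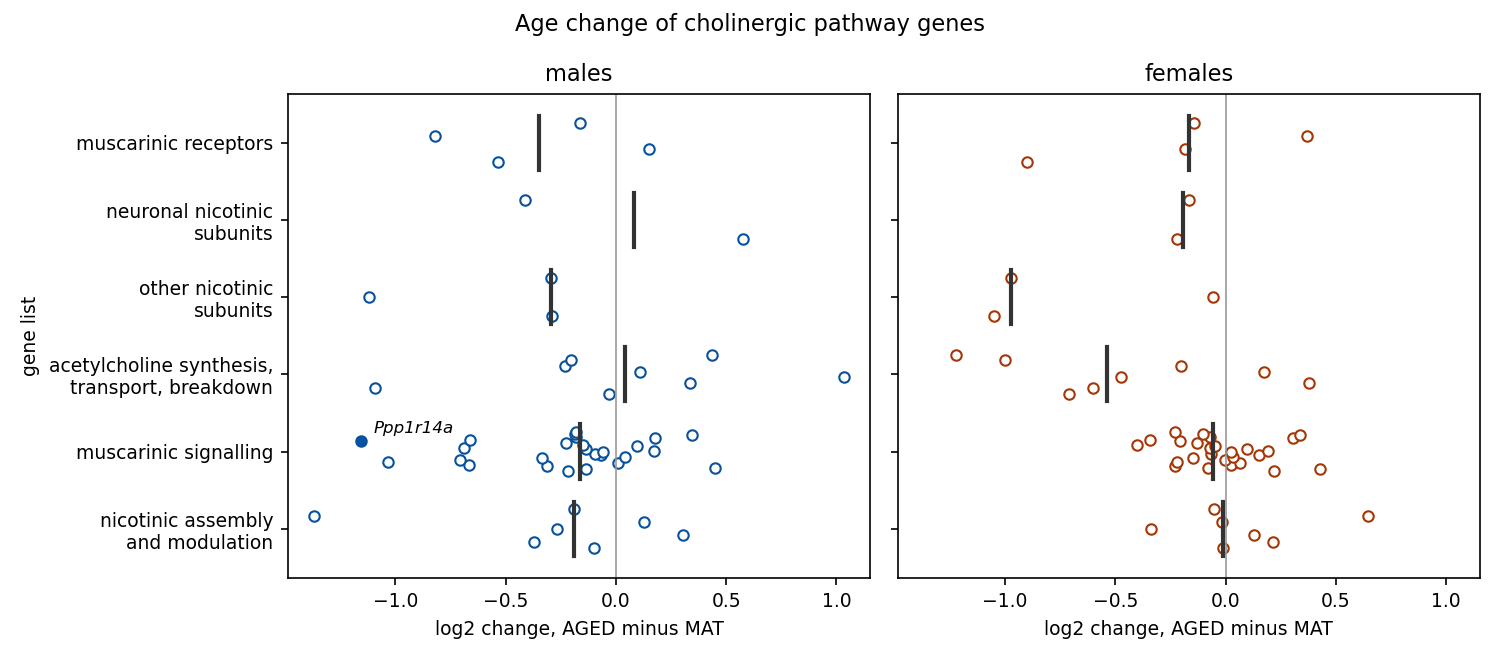
Log2 change, AGED minus MAT, of every tested gene of 6 cholinergic gene lists (rows) in males (left, blue) and females (right, brown); filled points are genes called by limma, open points are not (among them Chrng in males, Ache in females and Plcb2 in both sexes, each with a group not well above background), and vertical bars are list medians. The only filled point is Ppp1r14a in males (-1.16), and the median of muscarinic signalling is -0.16 in males and -0.056 in females. The bar of the other nicotinic subunits is the value of Chrng in both sexes.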

How the data were processed

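Total RNA of 16 bladder bodies was labelled with Cy3 and hybridised, 1 bladder to an array. The authors deposited an intensity for each of 62976 spots, the processed signal, which Feature Extraction (9.1 in the submitters' processing notes, 10.7.3.1 in the file headers) writes after background subtraction and detrending, with flags for detection. A log2 value per probe and array was also deposited by the authors. Set against the scanner signals, this table differed after scaling by a median of at most 0.0136 on any array, and each probe in it is centred, its column medians running from -0.13 to 0.29, with no direction of its own.

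Log2 processed signals were scaled by the 75th percentile of each array. Control spots and outlier-flagged spots (399 probe values) were left out, 0 spots were saturated, and spots of a probe were averaged. Probes were named by accession (RefSeq, GRCm38.p6, names alone), 26582 of 55681. Probes well above background on at least 4 of 16 arrays were kept (36972), each gene by its brightest kept probe. Groups were fitted in 1 limma model (limma 3.58.1, R 4.3.3, 12 residual degrees of freedom, procedure tested on simulated data), with calls at an adjusted p under 0.05 and 2-fold (no fold limit between the sexes). Exact permutation tests were two-sided. For a group with no array well above background, a fold was taken against raised signals. Each was the higher of the array's own signal and its lowest signal well above background. Members and lists were chosen with earlier results of these data known. Named are the members, the called genes of the lists, up to 3 genes of a list with the highest mean signal (for choosing names, not to rank levels), and the 5 genes most correlated with Chrm2 and Chrm3. The number of arrays limits the precision. Alternatives covered scaling, background, filters, probes, tests, spread, the replicate block and each array left out. Normexp was run on median spot signals with an offset of 50, which shrinks log2 changes of dim probes. Leaving out AGED male replicate 1 and AGED female replicate 4 together was added after the data were seen.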

Additional observations from a re-analysis of the deposited data

Results flagged for a closer look

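Single arrays stood apart from the other 3 of their group in 5 of 52 groups of a receptor, Ppp1r14a or Stmn2 probe (9.62%), where chance marks about 1 in 20. The measure is the gap to the nearest array as a share of the group's range. AGED female replicate 4 lay low for Chrm1 probe A_55_P2055262 (-7.24 against -5.26 to -4.98, share 0.876), and AGED male replicate 1 lay high for the dim Chrm1 probe A_52_P393577 (-5.53 against -7.54 to -7.35, share 0.903). MAT male replicate 2 lay high for Chrm4 (-2.87 against -4.03 to -3.86, share 0.855). MAT female replicate 3 lay low for Chrnb2 (-4.53 against -3.95 to -3.86, share 0.870), and AGED male replicate 3 for Chrna3 (-7.52 against -6.55 to -6.41, share 0.871), a probe that passed background on 0 arrays.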

How the results depend on the processing

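No receptor gene was called in males, in females or in the difference between the sexes under any alternative run. Of the changes in males, normexp turned Chrm4 to 0.090, Chrnb2 to -0.097 and Chrnb4 to 0.17, and array weights turned Chrnb4 to 0.019. In females Chrm4 turned to 0.099 without AGED male replicate 1 and AGED female replicate 4. The difference between the sexes turned for Chrm1 with a floor on low signals (-0.020), for Chrm4 with normexp (0.12) and array weights (0.035), for Chrnb2 with normexp (-0.0097), and for Chrnb4 with normexp (0.19), array weights (0.16) and without those 2 arrays (0.093). With 1 array left out, the change of Chrm4 ran from -0.40 to 0.11 in males and from -0.40 to 0.099 in females, and that of Chrm2 in females from -0.40 to 0.22. The difference ran from -0.17 to 0.58 for Chrm1, -0.076 to 0.55 for Chrm2, -0.26 to 0.26 for Chrm4 and -0.52 to 0.063 for Chrnb4. Chrm3 in males ran from -1.03 to -0.59, and in females from 0.057 to 0.62. The causes were not tested. Normexp also moved the median of all genes in males to 0.12.

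The 1 pathway gene called in males became 2 with quantile or median scaling, the mean of a gene's probes, every probe tested or both arrays left out, 3 with the methods' t-test unadjusted, 4 with normexp, 5 with limma's unadjusted p, and 0 with that t-test adjusted or each sex alone. It ran from 1 to 3 with 1 array left out, 3 without AGED male replicate 2 and 2 without AGED male replicate 1 or 3. In females 0 became 1 with either unadjusted test. In the difference 0 became 1 with the stricter filters on dim probes, array weights or a variance trend, 2 with normexp and 6 with the unadjusted p, and ran from 0 to 1 with 1 array left out. The 1 receptor probe without overlap in males became 0 with normexp and ran from 1 to 2 with 1 array left out, and the 1 in females became 0 with normexp. Over all genes the male count was 0 to 752, the female 1 to 506 and that of the difference 7 to 2644, and with 1 array left out 123 to 377, 1 to 120 and 6 to 269.

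Arrays of the same number and sex did not deviate together (correlations of -0.148 to 0.0661). This cannot show whether mice of the same number shared a litter, a cage or a day of handling. The number was also the column on the slide, so the replicate block is a block of slide columns as well. With the replicate block the Chrm3 change in males had a limma adjusted p of 0.365, no receptor was called, and all-gene calls went from 228 to 184 in males, 51 to 3 in females and 40 to 12 in the difference. Signals near background limit Chrm1, Chrm5 and the α subunits most. Chrm4, Chrnb2 and Chrnb4 were dim too, with processed signals of 12.5 to 131, where those of Chrm2 and Chrm3 ran from 402 to 2851.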
